A study of Mus musculus with 24 samples.

Results

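The genes of the unfolded protein response and of the folding machinery of the endoplasmic reticulum (ER) were followed in P815, an established mouse mastocytoma line, that is, a tumour line of the mast cell lineage. The set has 38 genes chosen by name from textbook functions: stress sensors, transcription factors, chaperones, disulfide enzymes, glycoprotein folding factors, degradation factors and proteins of ER entry and exit. All 38 were found among the 55385 genes of the deposited table, and 37 of them were among the 12183 genes that passed the filter of 1 FPKM (fragments per kilobase of transcript, scaled to library depth) in at least 3 of 24 libraries. The gene left out was Derl3, a derlin of ER-associated degradation, with 0 to 28 estimated counts and at most 0.212 FPKM. The rule uses gene names and no measured value, but the members were chosen with earlier results of these data known.

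The 24 libraries form 8 groups of 3. NC cells were transfected with a negative control vector, SH cells with a vector for an Esr1-specific short hairpin RNA (shRNA), ICI cells were given the antiestrogen ICI-182780 (fulvestrant) and Tamo cells tamoxifen. Each of these 4 arms has a group without added hormone and one given β-estradiol (E2), named NC_E2, SH_E2, ICI_E2 and Tamo_E2. The labels give 24 h for every treated group and no time for NC and SH without E2. All groups share the line and its medium, RPMI-1640 with 10% fetal bovine serum, which the labels do not describe as free of hormones. The labels give neither doses nor a group with vehicle alone or without transfection, and they name 1 hairpin construct. Since no vector is named for ICI and Tamo, an effect of the drug and one of carrying the vector cannot be told apart in their comparison with NC. Nothing in the labels tells whether replicates are separate cultures, and p-values here rest on a spread between samples that could be technical only.

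As background, proteins that enter the secretory pathway fold in the ER with the help of chaperones such as BiP (the product of Hspa5), and disulfide isomerases and lectin chaperones act on the same clients. When unfolded proteins accumulate, the sensors IRE1 (Ern1), PERK (Eif2ak3) and ATF6 are activated. IRE1 splices the messenger RNA of Xbp1, PERK slows translation and favours ATF4, and cleaved ATF6 enters the nucleus. The factors so produced induce chaperones and the genes of ER-associated degradation, in part through promoter elements known as ERSE. Mast cells store and secrete large amounts of glycoproteins and proteases, all of which pass through the ER.

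Libraries held 42.1 to 68.8 M estimated counts, and the 38 genes together took 1.27% to 1.71% of them (median 1.36%). All 12 mast cell markers on the fixed list reached 1 FPKM, while 0 of 5 T cell and 0 of 4 epithelial markers did. The summed mast cell markers were at 855 to 1133 FPKM in the 6 vector libraries and 1065 to 1299 in the 6 hairpin libraries, and the part of this shift in the results was not tested. Of the markers of other cells, 1 of 6 for B and plasma cells (Ighm), 1 of 4 for macrophages (Adgre1), 1 of 5 for fibroblasts (Col1a1), 1 of 4 for erythroid cells (Hba-a1) and 2 of 3 for hepatocytes (Apoa1 and Ttr) reached 1 FPKM in a library. The B and plasma cell markers summed to 0.0351 to 0.434 FPKM in vector libraries and 0.710 to 3.96 in hairpin libraries, and Ms4a1 among them was under 0.01 FPKM in every library. The macrophage markers summed to 0.206 to 0.811 FPKM in vector libraries and 0.677 to 1.69 in hairpin libraries, and the erythroid markers to 0.645 to 1.32 and 0.0239 to 0.5005. The macrophage ranges overlapped, while the B and plasma cell sums were all higher and the erythroid sums all lower in hairpin libraries. Hepatocyte markers summed to 0.839 to 9.685 FPKM in vector and 0.0678 to 6.283 in hairpin libraries. Fibroblast markers summed to 0.523 to 2.41 and 0.688 to 1.27, and both pairs of ranges overlapped. All these sums were far below that of the mast cell markers, and their part in the results was not tested. The target of the hairpin, Esr1, was low in every library. It stood at 0.404, 0.435 and 0.187 FPKM in NC replicates 1, 2 and 3 and at 0.347, 0.227 and 0.260 in SH. With E2 it was 0.389, 0.319 and 0.234 in NC_E2 and 0.254, 0.181 and 0.210 in SH_E2, and the 12 inhibitor libraries ran from 0.161 to 0.520. Vector and hairpin libraries overlapped, so these levels do not check the labels of the hairpin arm.

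Promoter sequences are shown first for 6 members in whose windows the classical ER stress element ERSE (CCAAT, any 9 bases, then CCACG) was found. Hspa5, Hsp90b1, Calr and Canx encode chaperones, and Pdia6 and Creld2 are grouped here with the disulfide enzymes. Dnajc3, Syvn1, Derl3 and Ero1lb also held an ERSE and are not shown. Windows of 300 bases, from 250 before to 50 after the transcription start, were taken from RefSeq (GRCm38.p6) for 34 of the 38 members, with Ero1l and Ero1lb matched under their newer symbols Ero1a and Ero1b. Derl1, Atf6, Manf and Hyou1 were not matched. Each stretch below runs 5′ to 3′ on the strand of its gene, with the element and 20 bases of lower-case context either side, and capitals mark the ERSE in either orientation.
Hspa5: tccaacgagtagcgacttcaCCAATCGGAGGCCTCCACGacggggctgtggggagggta
Hsp90b1: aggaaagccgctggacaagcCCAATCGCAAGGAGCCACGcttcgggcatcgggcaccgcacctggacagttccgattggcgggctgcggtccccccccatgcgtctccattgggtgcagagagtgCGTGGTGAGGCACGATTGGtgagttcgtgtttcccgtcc
Pdia6: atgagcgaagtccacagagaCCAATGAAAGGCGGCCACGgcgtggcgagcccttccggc
Calr: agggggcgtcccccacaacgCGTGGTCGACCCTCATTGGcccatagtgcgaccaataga
Canx: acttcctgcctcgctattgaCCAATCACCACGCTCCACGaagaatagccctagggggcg
Creld2: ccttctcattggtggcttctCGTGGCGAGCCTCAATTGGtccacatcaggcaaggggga
The stretches lie at chr2:34772005-34772063 (plus strand, Hspa5), chr10:86705513-86705676 (minus strand, Hsp90b1), chr12:17266471-17266529 (plus, Pdia6), chr8:84847055-84847113 (minus, Calr), chr11:50325780-50325838 (minus, Canx) and chr15:88819500-88819558 (plus, Creld2). Counted from the RefSeq start, the element begins at base -65 in Hspa5, -98 in Pdia6, -162 in Calr and -145 in Canx. For Hspa5 the gene start given below, from GENCODE, lies before that RefSeq start and before the element. Hsp90b1, the gene of GRP94, held 2 elements in opposite orientations. In Calr and Creld2 the element reads in the reverse orientation, as CGTGG followed by ATTGG.

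The ERSE was searched on both strands with no mismatch. It occurred in 10 of 34 member windows (29.4%) and in 37 of 27025 genes with a window (0.137%). The 10 were Hspa5, Hsp90b1, Pdia6, Calr, Canx, Dnajc3, Syvn1, Derl3, Creld2 and Ero1lb. The related element ERSE-II (ATTGG, any 1 base, then CCACG), which shares its CCACG end with the ERSE, was in the windows of Herpud1 and Dnajb11, 5.88% of the members against 0.0444% of all genes. UPRE (TGACGTGG), an XBP1 binding sequence whose CGTGG is the reverse complement of that end, was in Sec24d alone (2.94% against 0.714%). The amino acid response element searched as TTGCATCA was in Herpud1 alone (2.94% against 1.03%). Several of these genes are classical targets on which such elements were defined, so the shares describe the set and are no test of it, and a window without a match says only that these letters are not in it.

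Levels in the 6 vector libraries set the scale. Over 100 FPKM stood 12 of the 37 tested members, 16 were from 20 to 100 and 9 were under 20. Calr, the lectin chaperone calreticulin, was the most abundant at 466 ± 22.3 FPKM (SD over 6 libraries), and P4hb, protein disulfide isomerase, followed at 437 ± 37.7. Hspa5 had 367 ± 67.4 and Hsp90b1 335 ± 20.8, so Hspa5 varied most between libraries among these 4 and the intervals of neighbours in this order overlapped. The sensors were scarce beside their targets: Atf6 had 21.3 ± 2.92 FPKM, Eif2ak3 9.77 ± 1.40 and Ern1 3.16 ± 0.803. The factor Xbp1 stood at 36.4 ± 3.74. Over all 24 libraries the spread was small for most members, and 24 of the 37 had their lowest value in a hairpin library (29.2% of all genes) while 4 had their highest there (42.6%).

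**Figure D1:**
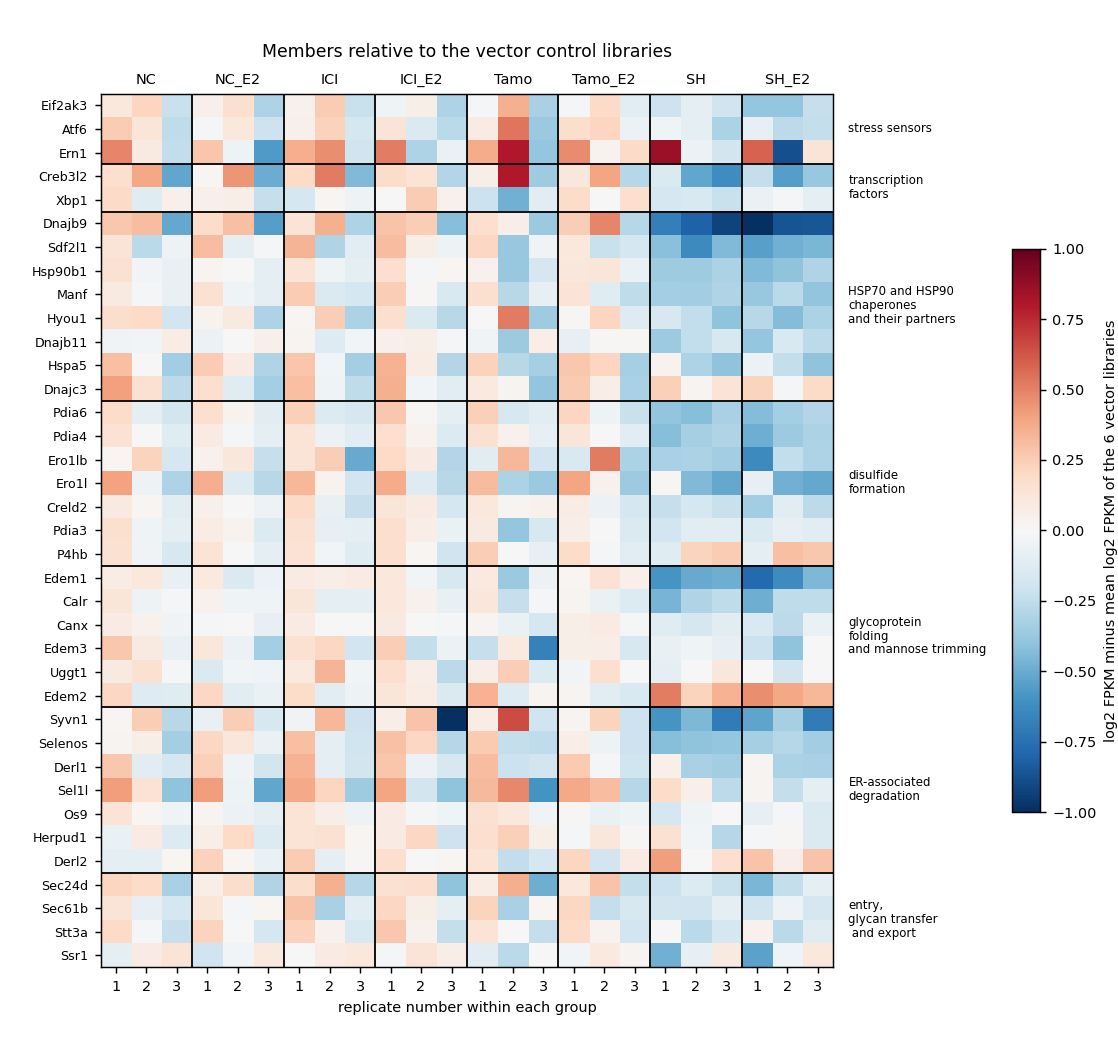
Log2 FPKM of the 37 tested members (rows, grouped by role) in the 24 libraries (columns, 8 groups of replicates 1, 2 and 3), each as the difference from the mean log2 FPKM of the 6 vector libraries. Blue is lower and red higher, with colours cut off at 1 either way. The 6 hairpin columns at the right are blue for most chaperones and disulfide enzymes, and outside them the columns of number 1 are redder than those of number 3.

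Some libraries held many of the extreme values. SH_E2 replicate 1 had the lowest of the 24 values for 11 members (Hsp90b1, Pdia4, Pdia6, Calr, Dnajb9, Dnajb11, Edem1, Eif2ak3, Creld2, Ero1lb and Ssr1), the least depth (42.1 M) and the fewest genes detected (18637). Without it, hairpin against vector gave 2 lower members with E2 in place of 7. In the mean over both E2 conditions, 13 were lower and 1 higher, in place of 14 and 1. Of all genes, 3.07% were then lower with E2, in place of 4.28%. In the mean 9.13% of all genes were lower and 9.53% higher, in place of 10.0% and 10.6%. Tamo replicate 2 held the highest of the 24 values for 8 members (Herpud1, Sel1l, Syvn1, Atf6, Eif2ak3, Hyou1, Sec24d and Creb3l2), the lowest for 3 (Pdia3, Derl2 and Xbp1) and the most genes detected (20335). In ICI_E2 replicate 3, Syvn1 was 11.7 FPKM, the lowest of all 24. The counts of members that passed in the inhibitor comparisons were 0 with and without Tamo replicate 2 and ICI_E2 replicate 3.

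Hairpin cells were compared with vector cells in 2 sets of libraries that have none in common, without and with E2. The labels name no other hairpin construct, and Esr1 levels overlapped between these arms. An effect of the construct and any other difference between the cell populations therefore cannot be told apart. The 2 sets share their arms and the fit, and libraries with the same replicate number may share a culture. Calls found in both sets are thus no independent replication. Edem1 of mannose trimming, the chaperones Hsp90b1, Dnajb9 and Calr and the disulfide isomerase Pdia4 were lower in hairpin cells in both sets. Without E2, 6 of 37 members passed as lower and 0 as higher (edgeR quasi-likelihood, Benjamini-Hochberg adjusted p under 0.05). They were Edem1, Pdia4, Hsp90b1, Calr, Dnajb9 and Canx. With E2, 7 passed as lower and 0 as higher, namely Edem1, Pdia4, Hsp90b1, Dnajb9, Sdf2l1, Calr and Pdia6. Among all genes tested, 4.15% passed as lower and 4.92% as higher without E2 (9.07% in all), and 4.28% and 5.3% with it (9.59% in all). The 5 members that passed in both are 83.3% of the calls without E2 and 71.4% of those with it. For all genes tested these shares were 78.2% and 74.0%.

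Most other members leaned the same way without passing. Negative differences were found for 33 of 37 members without E2 (median log2 fold change -0.27) and for 32 with it (median -0.28), while the medians of all genes tested were 0.00055 and -0.0042. The sign was the same in both sets of libraries for 36 of 37 members, against 80.2% of all genes, and the largest gap between the 2 estimates of a member was 0.22. The exception in sign was Dnajc3, at -0.04 ± 0.18 (SE) without E2 and 0.18 ± 0.18 with it. All 3 SH libraries lay below all 3 NC libraries for 16 members without E2 (9.73% of all genes) and all 3 SH_E2 below all 3 NC_E2 for 14 (10.3%). The 6 hairpin libraries lay below all 6 vector libraries for 11 members (5.01%). They lay below all 18 others for Pdia4, Pdia6, Calr, Dnajb9, Edem1 and Sdf2l1, 6 members against 2.91% of all genes. In the other direction, Edem2 was above all 6 vector libraries (8.82% of all genes), and 0 members were above all 18 others (6.04%).

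Averaged over both E2 conditions, which sets 6 libraries against 6, 14 members were lower and 1 was higher. The fit counts these libraries as separate, although those of a number with and without E2 may share a culture. For numbers 1, 2 and 3 their deviations from group means correlated at 0.472, 0.184 and 0.183 in hairpin cells. In vector cells these were 0.274, 0.17 and 0.272. If cultures are shared, each side holds only 3 of them, and adjusted p of the mean may be too small. The background was 10.0% of genes lower, 10.6% higher and 20.7% in either direction. The median over the 37 members was -0.28, and over all genes tested -0.0040. Without E2, leaving out NC replicate 1 or SH replicate 1 gave 3 members, and the other omissions 4 or 5. In these omissions 3.15% to 3.36% of all genes were lower. With E2, 2 members passed without SH_E2 replicate 1, 3 without NC_E2 replicate 1, 4 without NC_E2 replicate 2 or SH_E2 replicate 3, and 5 otherwise. Here 3.02% to 3.18% of all genes were lower. With replicates 2 and 3 alone, 1 of 37 members was lower in each set. That share is near those of all genes, 2.9% lower without E2 and 2.84% with it. In the mean of these replicates 9 members were lower and 2 higher (7.78% and 8.69% of all genes). With the replicate number as a block, a pairing that the libraries without E2 bear out, 17 members were lower and 1 higher without E2. Over all genes too more were called, 10.2% lower and 11% higher. The block takes 1 number effect for all arms. That effect differed between the hairpin arm and the others for 10 of 37 members (4.05% of all genes). In bulk RNA, a lower level in every cell and fewer cells with the transcript cannot be told apart.

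**Figure D2:**
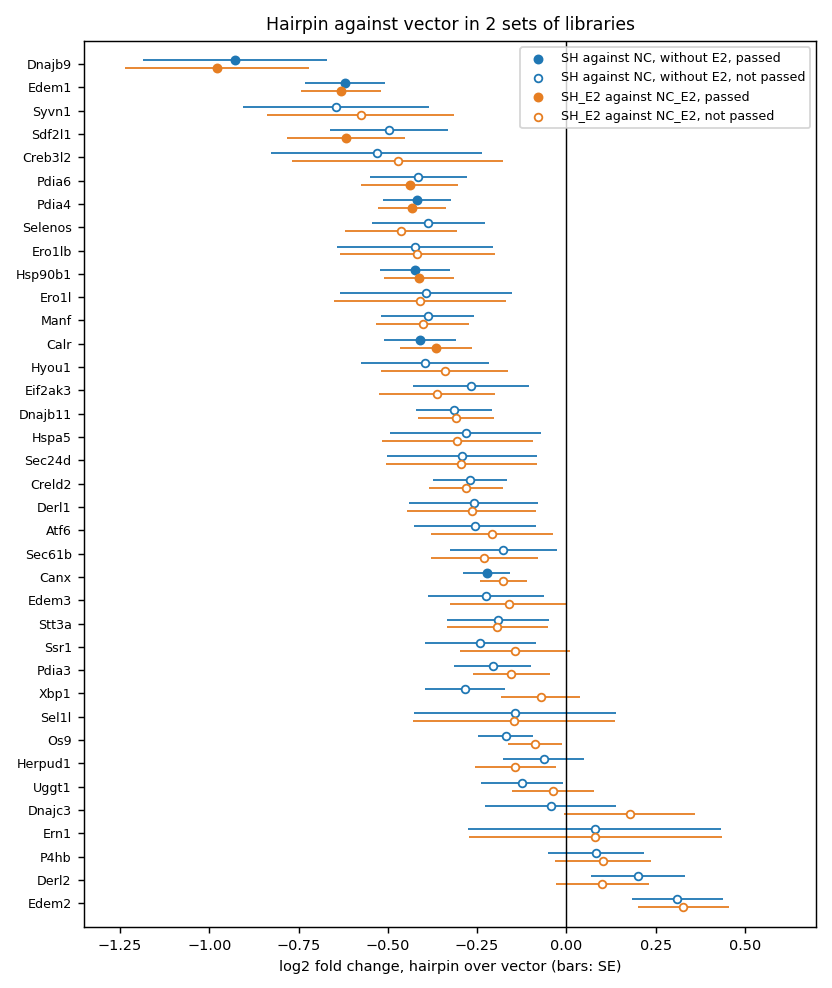
Log2 fold change of hairpin over vector for the 37 tested members, without E2 (blue, SH against NC) and with E2 (orange, SH_E2 against NC_E2), with bars of 1 SE. Filled circles passed at an adjusted p under 0.05, 6 members without E2 and 7 with it, all left of 0.

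Chaperones of the HSP70 and HSP90 families and their partners passed most often, 6 lower and 0 higher of 8 in the mean over both E2 conditions (median -0.38). Hsp90b1 (ENSMUSG00000020048, chromosome 10, 86690209 to 86705509, GRCm38), which encodes the ER-resident HSP90 chaperone GRP94, had 372, 329 and 318 FPKM in NC and 340.0, 336 and 314 in NC_E2. It had 261, 261 and 268 in SH and 246, 253 and 272 in SH_E2. Every hairpin library was thus below every vector library. The 12 inhibitor libraries ran from 257 to 375 (median 334), with Tamo replicate 2 the lowest of them. The mean difference was -0.42 ± 0.07, a change of -25.1% (edgeR adjusted p = 0.000177). It passed in each set alone, at 0.00761 without E2 and 0.00968 with it, although without SH_E2 replicate 1 the latter became 0.0516.

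Dnajb9 (ENSMUSG00000014905, chromosome 12, 44205559 to 44210326) encodes ERdj4, a BiP cochaperone that is a known XBP1 target, and had the largest difference of the set. NC held 15.1, 15.5 and 8.75 FPKM and NC_E2 14.2, 15.4 and 8.53, so that replicate 3 was the low library in both. SH held 7.77, 7.14 and 6.58 and SH_E2 6.18, 6.87 and 6.89. The hairpin libraries were close to each other and below every one of the 18 others, of which the inhibitor libraries ran from 9.29 to 17.6 (median 13.9). Over both E2 conditions the difference was -0.95 ± 0.18, a change of -48.4% (adjusted p = 0.00071). Separately it passed at 0.0261 without E2 and 0.0192 with it. Both calls were lost in most omissions of 1 library: without E2 when NC replicate 1 or 2 or any SH library was left out (largest adjusted p = 0.121), and with E2 when NC_E2 replicate 1 or 2 or SH_E2 replicate 1 or 3 was (largest 0.0965).

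Sdf2l1 (ENSMUSG00000022769, chromosome 16, 17130138 to 17132383), a partner of the cochaperone ERdj3, stood at 138, 105 and 123 FPKM in NC and 157, 119 and 125 in NC_E2. SH had 94.99, 81.6 and 93.5 and SH_E2 87.0, 91.1 and 92.3. No hairpin library reached the lowest of the others, and the inhibitor libraries spanned 97.5 to 160.0 (median 123). Its mean log2 difference was -0.56 ± 0.12, a change of -32.0% (adjusted p = 0.00168). With E2 it passed at 0.0213, and the call was lost without NC_E2 replicate 1 or without any SH_E2 library (largest 0.108).

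Manf (ENSMUSG00000032575, chromosome 9, 106838312 to 106891915), a small ER protein that binds BiP and is secreted under stress, had 91.7, 84.7 and 81.6 FPKM in NC and 95.6, 83.3 and 80.3 in NC_E2. Hairpin values were 67.9, 67.5 and 69.8 in SH and 66.2, 71.3 and 65.5 in SH_E2. They did not overlap with the vector libraries, while Tamo replicate 2, at 71.1 the lowest inhibitor library (median of the 12, 80.1; highest 102), lay inside the hairpin range. The mean difference was -0.40 ± 0.09, a change of -24.0% (adjusted p = 0.00385).

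Dnajb11 (ENSMUSG00000004460, chromosome 16, 22857845 to 22872465) encodes ERdj3, a cochaperone that binds unfolded clients for BiP. Vector values were tight, at 53.8, 54.1 and 58.2 FPKM in NC and 53.0, 55.2 and 57.1 in NC_E2. Hairpin values were 42.9, 46.6 and 49.5 in SH and 42.2, 49.7 and 46.1 in SH_E2, below every vector library. The inhibitor libraries ran from 43.0 in Tamo replicate 2 to 57.7 (median 55.0). Over both E2 conditions the difference was -0.31 ± 0.07, a change of -19.5% (adjusted p = 0.00479). Hyou1, the nucleotide exchange factor GRP170, also passed in the mean, at -0.37 ± 0.13 (adjusted p = 0.0438). Its vector libraries had 26.8 to 38.1 FPKM and its hairpin libraries 24.5 to 29.6, so the ranges overlapped.

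Hspa5 itself (ENSMUSG00000026864, chromosome 2, 34771970 to 34777547), the gene of the master chaperone BiP, did not pass. It had 447, 363 and 285 FPKM in NC replicates 1, 2 and 3 and 431, 383 and 295 in NC_E2. SH had 372, 292 and 274 and SH_E2 348, 306 and 275. The groups overlapped, and number 1 was the highest and number 3 the lowest library in each of these 4 groups. The inhibitor libraries ran from 286 to 460.0 (median 368). Its mean log2 difference was -0.29 ± 0.15 (95% interval -0.61 to 0.02, adjusted p = 0.187). With the replicate number as a block it passed without E2 (-0.27 ± 0.08, adjusted p = 0.0275), as did Sdf2l1, Pdia6, Manf, Dnajb11, Selenos, Creld2, Edem2 and Syvn1 among the members described here. Dnajc3, the gene of p58IPK, an inhibitor of PERK, was at 18.7 to 31.4 FPKM in vector and 23.5 to 27.9 in hairpin libraries and had a mean difference of 0.07 ± 0.13.

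**Figure D3:**
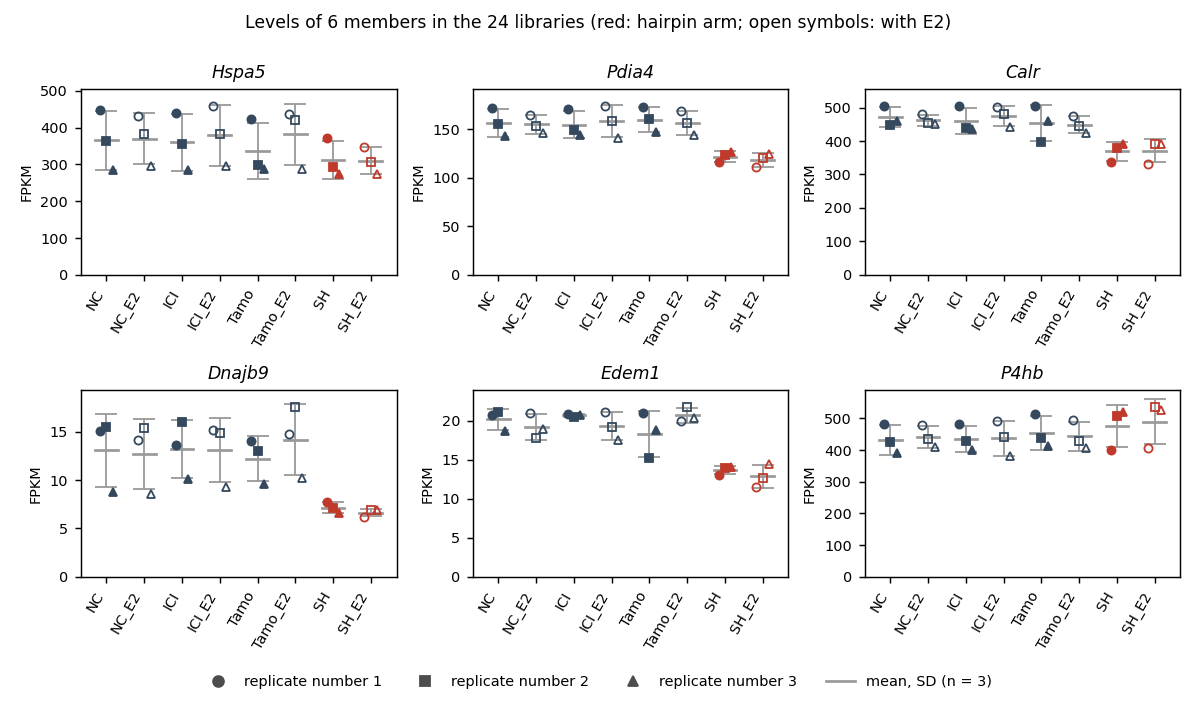
FPKM of Hspa5, Pdia4, Calr, Dnajb9, Edem1 and P4hb in all 24 libraries, by group (x axis), with circles, squares and triangles for replicate numbers 1, 2 and 3, open symbols with E2, red for the hairpin arm, and grey lines for mean and SD (n = 3). For Pdia4, Calr, Dnajb9 and Edem1 the red symbols lie below all others, while for Hspa5 and P4hb they overlap with them.

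Enzymes of disulfide formation gave 3 lower and 0 higher of 7 in the mean (median -0.40). Pdia4 (ENSMUSG00000025823, chromosome 6, 47796141 to 47813430), which encodes ERp72, had 172, 155 and 143 FPKM in NC and 165, 154 and 146 in NC_E2. Hairpin cells had 116, 123 and 126 in SH and 111, 121 and 125 in SH_E2. The highest hairpin library was thus well under the lowest of the 18 others, and the inhibitor libraries ran from 141 to 174 (median 158). The mean difference was -0.43 ± 0.07, a change of -25.6% (adjusted p = 0.000104). It passed in each set (0.00659 without E2 and 0.00532 with it) and in every omission of 1 library (largest adjusted p = 0.0431).

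Pdia6 (ENSMUSG00000020571, chromosome 12, 17266545 to 17284770), the gene of the isomerase P5, showed 182, 150.0 and 141 FPKM in NC and 179.5, 164 and 148 in NC_E2. SH showed 122, 119 and 128 and SH_E2 118, 126 and 131. Again no hairpin library reached the others, whose inhibitor libraries spanned 137 to 192 (median 152). Over both E2 conditions the difference was -0.43 ± 0.10, a change of -25.6% (adjusted p = 0.00295). With E2 alone it passed at 0.0467, and that call was lost whichever of the 6 libraries was left out (largest 0.167).

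Creld2 (ENSMUSG00000023272, chromosome 15, 88819646 to 88826683), an ER protein known to be induced by stress, stood at 97.2, 92.8 and 84.7 FPKM in NC and 94.8, 91.3 and 88.0 in NC_E2. SH had 77.9, 80.7 and 78.4 and SH_E2 71.8, 85.2 and 76.4. Only SH_E2 replicate 2 entered the vector range, by passing NC replicate 3. The inhibitor libraries ran from 77.9 to 104 (median 93.5). Its mean log2 difference was -0.28 ± 0.07, a change of -17.4% (adjusted p = 0.00985). The oxidases that recharge the isomerases did not pass: Ero1l had -0.40 ± 0.17 (adjusted p = 0.107) and Ero1lb -0.42 ± 0.15 (0.0609). For Ero1lb all 6 hairpin libraries (1.90 to 2.48 FPKM) lay below all 6 vector libraries (2.51 to 3.45). Pdia3, the isomerase ERp57, had -0.18 ± 0.08 (0.108).

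P4hb differed from its relatives. Its NC values were 484, 424 and 390.3 FPKM and its NC_E2 values 479.5, 435 and 409, with number 1 the high library, as for Hspa5. SH had 401, 509 and 520.4 and SH_E2 408, 535 and 526, where number 1 was the low library. The mean difference, 0.09 ± 0.09 (adjusted p = 0.558), therefore averages libraries that point in opposite directions, as described with the replicate numbers.

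Among genes of glycoprotein folding and mannose trimming, 3 of 6 were lower and 1 was higher in the mean (median -0.20). Calr (ENSMUSG00000003814, chromosome 8, 84841850 to 84846934), the most abundant member, had 506, 449 and 459.7 FPKM in NC and 479, 453 and 451 in NC_E2. SH had 337, 379 and 391 and SH_E2 332, 390.1 and 391. All hairpin libraries were below the others, though Tamo replicate 2, the lowest inhibitor library at 396 (median 452, highest 505), came close. The mean difference was -0.39 ± 0.07, a change of -23.5% (adjusted p = 0.000465). Separately it passed at 0.0112 without E2, which became 0.0647 without SH replicate 1 and was also lost without NC replicate 1. With E2 it passed at 0.0247 and was lost without SH_E2 replicate 1 (0.139) or any NC_E2 library.

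Canx (ENSMUSG00000020368, chromosome 11, 50293961 to 50325673), the membrane-bound lectin chaperone calnexin, had 176, 171 and 162 FPKM in NC and 164, 167 and 157 in NC_E2. SH had 153, 148 and 154 and SH_E2 149.6, 139 and 159. The ranges over 6 libraries overlapped slightly, because SH_E2 replicate 3 lay above NC_E2 replicate 3. Inhibitor libraries spanned 148 to 177 (median 166). Its difference was small but well measured, at -0.20 ± 0.05, a change of -13.0% (adjusted p = 0.00379). Without E2 it passed at 0.0370, and that call was lost whichever of the 6 libraries was left out (largest 0.1205).

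Edem1 (ENSMUSG00000030104, chromosome 6, 108828641 to 108859356), which helps to direct misfolded glycoproteins to degradation by mannose trimming, had the smallest adjusted p of the set. NC had 20.7, 21.1 and 18.6 FPKM and NC_E2 21.04, 17.8 and 18.9. SH had 13.0, 13.9 and 14.02 and SH_E2 11.5, 12.7 and 14.4. None of the hairpin libraries reached the lowest of the others, and the inhibitor libraries ran from 15.2 in Tamo replicate 2 to 21.7 (median 20.4). Over both E2 conditions the difference was -0.63 ± 0.08, a change of -35.2% (adjusted p = 9.56e-06). It passed in each set, at 0.00112 without E2 and 0.000949 with it, and in every omission of 1 library (largest adjusted p = 0.0084).

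Edem2 (ENSMUSG00000038312, chromosome 2, 155701677 to 155729475), a mannosidase of the same family, was the one member that rose. It had 28.7, 22.7 and 22.8 FPKM in NC and 28.7, 22.98 and 23.7 in NC_E2, with replicate 1 the high library of both. SH had 35.2, 28.9 and 31.6 and SH_E2 34.3, 32.5 and 31.1, all above the vector libraries. The inhibitor libraries ran from 22.3 to 31.6 (median 24.5). Its mean log2 difference was 0.32 ± 0.09, or 24.7% more (adjusted p = 0.0151), and neither set passed alone (0.154 without E2 and 0.126 with it). The remaining members, Edem3 (-0.19 ± 0.12) and the folding sensor Uggt1 (-0.08 ± 0.08), did not pass.

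ER-associated degradation gave 2 lower and 0 higher of 7 (median -0.15). Selenos (ENSMUSG00000075701, chromosome 7, 66079649 to 66089405), a selenoprotein that links the derlins to the ATPase p97, had 102, 105 and 79.4 FPKM in NC and 116, 109 and 96.5 in NC_E2. SH had 75.1, 76.1 and 76.9 and SH_E2 80.2, 82.6 and 79.0. Within each E2 condition the groups did not overlap, although NC replicate 3 lay below 2 of the SH_E2 libraries. Inhibitor libraries ran from 82.7 to 124 (median 95.6). The mean difference was -0.42 ± 0.11, a change of -25.5% (adjusted p = 0.00943).

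Syvn1 (ENSMUSG00000024807, chromosome 19, 6046576 to 6053712), the gene of the ubiquitin ligase HRD1, had 25.1, 29.5 and 20.4 FPKM in NC and 23.5, 29.5 and 22.2 in NC_E2. SH had 16.5, 18.1 and 15.3 and SH_E2 17.2, 19.7 and 15.2, below every vector library. The inhibitor libraries ranged from 11.7 in ICI_E2 replicate 3 to 38.9 in Tamo replicate 2 (median 25.6), so that 1 of them was below all hairpin libraries. Over both E2 conditions the difference was -0.61 ± 0.18, a change of -34.5% (adjusted p = 0.0227). It was lost without NC replicate 2, NC_E2 replicate 2, SH replicate 3 or SH_E2 replicate 3 (largest adjusted p = 0.0627). Syvn1 is the only member on chromosome 19, where 182 of 450 tested genes (40.4%) were lower in hairpin cells, against 8.86% on other chromosomes. The median difference of chromosome 19 genes was -0.34 and that of other genes 0.0053. What part this shift has in the Syvn1 value was not tested. The other 13 lower members lie elsewhere.

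Other degradation genes did not pass. Sel1l, the partner of HRD1, had -0.15 ± 0.20 and Herpud1, a stress-inducible ER membrane protein, -0.10 ± 0.08. Herpud1 ran from 61.0 to 76.9 FPKM in vector and from 55.1 to 74.6 in hairpin libraries, a nearly complete overlap. The derlins Derl1 and Derl2 had -0.26 ± 0.13 and 0.15 ± 0.09, and the lectin Os9 had -0.13 ± 0.05 (adjusted p = 0.103).

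None of the 3 sensors and neither transcription factor of the set passed in the fit without a block. Atf6 and Eif2ak3 passed in the mean with the replicate number as a block. The pairing behind that block was not borne out for SH_E2 against NC_E2. For Eif2ak3, number 2 against 3 was 0.43 ± 0.06 outside the hairpin arm and -0.0005 ± 0.10 in it. The edgeR F test of the number effect between these arms gave an adjusted p of 0.0796. Atf6 (ENSMUSG00000026663, chromosome 1, 170704674 to 170867771) had 25.2, 22.9 and 17.7 FPKM in NC, 20.96, 22.7 and 18.2 in NC_E2, 20.5, 19.9 and 16.96 in SH and 19.98, 17.6 and 17.9 in SH_E2. Its inhibitor libraries ran from 16.3 to 30.6 (median 22.1), and its mean difference was -0.23 ± 0.12 (adjusted p = 0.197), or -0.22 ± 0.08 (0.0385) with the block. The overlap of the groups came from replicate 3 of NC and NC_E2, which were as low as hairpin libraries. Eif2ak3 (ENSMUSG00000031668, chromosome 6, 70844515 to 70905245) had 10.4, 11.3 and 8.29 FPKM in NC, 10.0, 10.8 and 7.83 in NC_E2, 8.40, 9.08 and 8.43 in SH and 7.39, 7.42 and 8.27 in SH_E2. Here too the low vector libraries were those of number 3. With inhibitor libraries from 7.73 to 12.4 (median 9.58), it had a mean difference of -0.31 ± 0.11 (adjusted p = 0.0594). With the block it was -0.30 ± 0.07 (0.00417) in the mean, -0.34 ± 0.10 (0.0260) with E2 and -0.26 ± 0.10 (0.0963) without it.

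Ern1 (ENSMUSG00000020715, chromosome 11, 106394650 to 106487852) was the least abundant sensor and the most variable. It had 4.32, 3.28 and 2.59 FPKM in NC, 3.73, 2.98 and 2.08 in NC_E2, 5.58, 2.95 and 2.71 in SH and 4.64, 1.67 and 3.36 in SH_E2, and inhibitor libraries from 2.36 to 5.36 (median 3.74). Both the highest and the lowest of the 24 values were hairpin libraries. Its mean difference was 0.08 ± 0.25, with a sign that turned in several omissions (for example -0.12 without SH replicate 1).

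Xbp1 (ENSMUSG00000020484, chromosome 11, 5520659 to 5525893) had 41.5, 33.3 and 37.6 FPKM in NC and 37.6, 37.8 and 30.9 in NC_E2. SH had 32.3, 32.7 and 31.1, all below NC, and SH_E2 had 34.6, 35.9 and 34.1, inside the NC_E2 range. Its mean log2 difference was -0.18 ± 0.08 (adjusted p = 0.122), made of -0.28 ± 0.11 without E2 and -0.07 ± 0.11 with it. These values are of total Xbp1 transcript: spliced and unspliced forms, and the cleavage of ATF6 or phosphorylation of PERK, are not measured by gene counts. Creb3l2, a membrane-bound transcription factor related to ATF6, had -0.50 ± 0.21 (adjusted p = 0.0996).

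The 4 genes of ER entry, glycan transfer and export gave no call, with a median of -0.20. Sec61b, a translocon subunit, had -0.20 ± 0.11, Ssr1, a subunit of the translocon-associated protein complex, -0.19 ± 0.11, Stt3a, the catalytic subunit of an oligosaccharyltransferase, -0.19 ± 0.10, and Sec24d, a cargo adaptor of COPII vesicles, -0.29 ± 0.15. All 4 differences were negative and their adjusted p ran from 0.186 to 0.245.

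Calls can be set beside the promoter elements, as a description over few genes. Of the 9 tested members with an ERSE in the window, 6 were lower in the mean (Hsp90b1, Pdia6, Calr, Canx, Syvn1 and Creld2), with a median difference of -0.39. The 3 without a call were Hspa5, Dnajc3 and Ero1lb. Of 24 members with a window but no ERSE, 6 were lower and 1 was higher, with a median of -0.19. Pdia4, Dnajb9, Edem1 and Sdf2l1, whose differences had some of the smallest adjusted p, were among these 24. No test was made between the 2 sets.

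The replicate numbers of the labels carried a pattern of their own. Outside the hairpin arm, number 1 libraries gave the largest and number 3 libraries the smallest share of counts to the 38 genes in each of the 6 groups. The shares for numbers 1, 2 and 3 were 1.68%, 1.49% and 1.35% in NC, 1.61%, 1.497% and 1.36% in NC_E2, 1.68%, 1.48% and 1.35% in ICI and 1.71%, 1.51% and 1.35% in ICI_E2. Tamo had 1.64%, 1.37% and 1.33% and Tamo_E2 1.64%, 1.54% and 1.34%. In the hairpin arm the shares were level instead, at 1.31%, 1.29% and 1.30% in SH and 1.27%, 1.30% and 1.31% in SH_E2. The labels do not say what a number marks, and libraries of a number with and without E2 may share a culture.

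**Figure D4:**
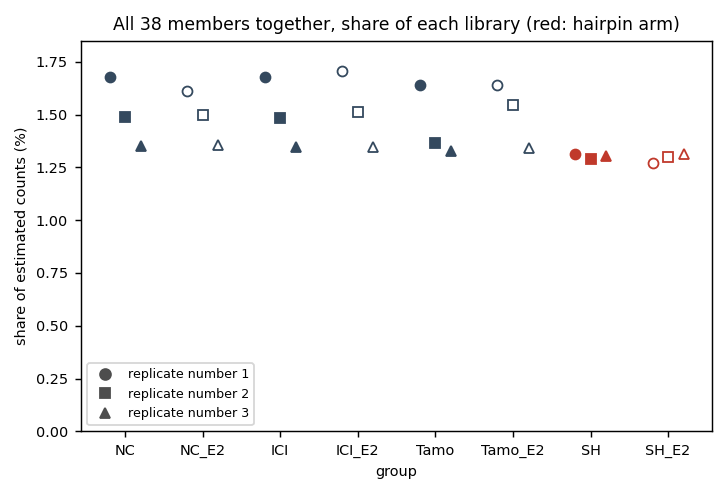
Share of estimated counts that the 38 members took in each library (y axis, from 0), by group (x axis), with circles, squares and triangles for replicate numbers 1, 2 and 3, open symbols with E2 and red for the hairpin arm. The hairpin libraries lie between 1.27% and 1.31%, and the number 1 libraries of the 6 other groups between 1.61% and 1.71%.

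Fits with 1 coefficient per arm and number (12 cells of 2 libraries, without and with E2) were added after the data were seen. Their SE, p-values and calls rest on the spread within these cells, between 2 libraries that may share a culture. Outside the hairpin arm, 31 of 37 members differed between numbers by an F test, where 49.3% of all genes did. Number 1 against number 3 gave 27 members higher and 1, Ssr1, lower (18.9% and 18.8% of all genes), with a median of 0.27. Hspa5 was 48.6% higher in number 1 (0.57 ± 0.07, edgeR adjusted p = 6.1e-06), Sel1l had 0.77, Ero1l 0.63 and Dnajb9 0.59. For 16 members number 1 was the highest library in each of the 6 groups (10.4% of all genes), and for 16 number 3 was the lowest (7.78%). In the hairpin arm 7 members differed between numbers (22.5% of all genes), namely P4hb, Calr, Derl1, Ern1, Ero1l, Stt3a and Ssr1. A number has 2 libraries in that arm and 6 outside it, so fewer calls can be reached there. For Hspa5, number 1 against 3 had an SE of 0.11 in the hairpin arm and 0.07 outside it. Between numbers 1 and 3, 3 were higher there (Hspa5, Derl1 and Ero1l) and 4 lower (Pdia4, P4hb, Calr and Ssr1), against 10.2% and 12.6% of all genes. Number 1 against number 2 gave 4 higher and 3 lower there (9.25% and 12.3% of all genes, 21.5% in all). Between numbers 2 and 3 of the hairpin arm 0 members differed (0.312% of all genes).

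The hairpin difference was also taken within each number. An F test of whether it differs between the numbers passed for 2 of 37 members, P4hb (adjusted p = 0.00115) and Creb3l2 (0.0445), and for 0.936% of all genes. For the other members this test, with NC as the only other arm, did not pass. The counts within numbers that follow are no test of a difference in size. A related F test, of the number effect in the hairpin arm against all other arms, passed for 10 of 37 members (4.05% of all genes). Within number 1, 26 members were lower and 0 higher (10.7% of all genes lower and 9.72% higher), with a median of -0.39. Within number 2, 20 were lower and 2, P4hb and Edem2, higher (8.12% and 8.86%), with a median of -0.30. Within number 3, 10 were lower and 3, P4hb, Edem2 and Dnajc3, higher (9.18% and 10.6%, 19.8% in all), with a median of -0.14. Lower within all 3 numbers were Pdia4, Pdia6, Calr, Dnajb9, Edem1, Derl1, Manf, Sdf2l1 and Ero1l, 9 members against 4.11% of all genes.

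P4hb changed sign between the numbers, at -0.32 ± 0.05 within number 1, 0.25 ± 0.05 within number 2 and 0.32 ± 0.05 within number 3, each of them passing (largest adjusted p = 0.00489). The SE and p-values of this paragraph rest on the spread between libraries of a number without and with E2, which may share a culture. For the other members named here the F test with NC alone did not pass, and the values are given side by side. Among them, the related F test against all other arms passed for Pdia4 (edgeR adjusted p = 0.00669) and Dnajb9 (0.0425). Dnajb9 had -1.13 ± 0.13, -1.17 ± 0.13 and -0.43 ± 0.13 within numbers 1, 2 and 3 (adjusted p at most 0.0327, and 0.0906 for the difference between the numbers), and Pdia4 had -0.63 ± 0.05, -0.38 ± 0.05 and -0.27 ± 0.05 (at most 0.00239, and 0.0649 for the difference). Hspa5 had -0.35 ± 0.11 within numbers 1 and 2 (adjusted p 0.0383 and 0.0450) and -0.14 ± 0.11 within number 3 (0.429), with an adjusted p of 0.752 for the difference between the numbers. Eif2ak3 had -0.44 ± 0.10, -0.45 ± 0.10 and -0.02 ± 0.10 (0.238 for the difference). Edem1 passed within each number, at -0.83 ± 0.14, -0.59 ± 0.14 and -0.47 ± 0.14 (largest adjusted p = 0.0239).

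**Figure D5:**
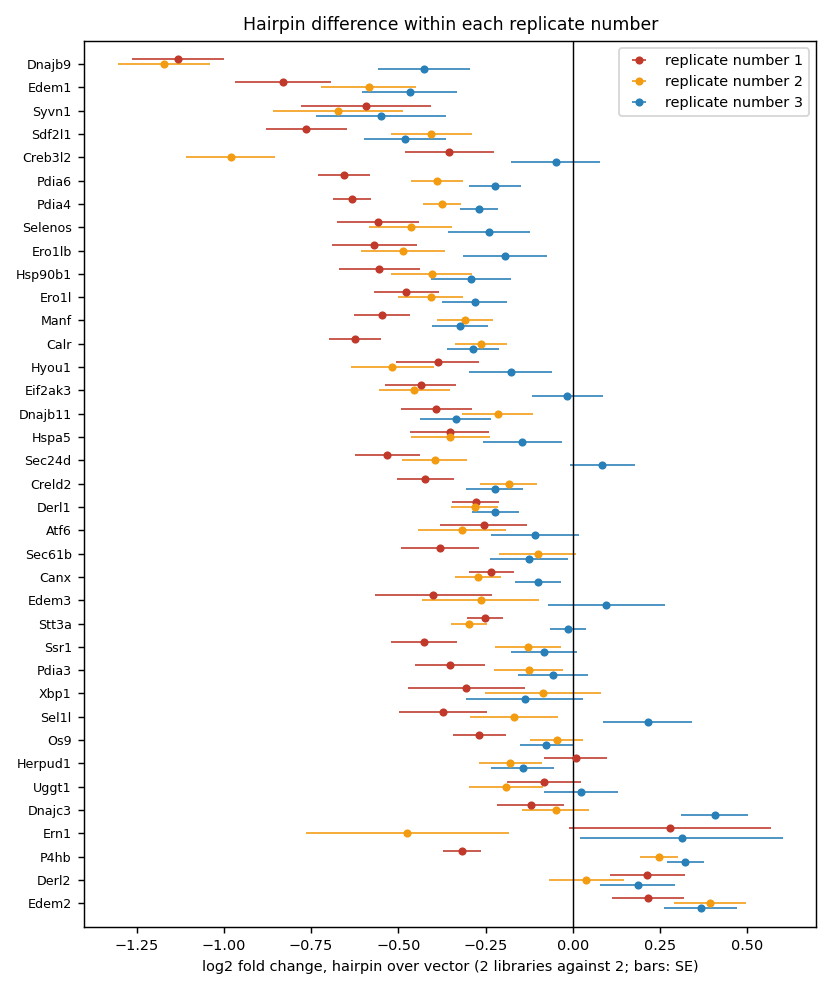
Log2 fold change of hairpin over vector within replicate numbers 1 (red), 2 (orange) and 3 (blue), 2 libraries against 2 in each, for the 37 tested members, with bars of 1 SE. Most members lie left of 0 at all 3 numbers, number 3 is often nearest to 0, and P4hb lies left of 0 at number 1 and right of it at numbers 2 and 3.

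Genes of the same pathways that are not members were taken from fixed lists, in the mean of hairpin against vector. In that comparison 10.0% of all genes were lower and 10.6% higher, shares that stand beside each list below. Of the list for the PERK and ATF4 branch, 3 of 19 tested genes were lower and 0 higher (median -0.15). Slc7a11, the cystine transporter subunit induced by ATF4, fell from 32.2 ± 7.30 FPKM in NC to 14.3 ± 2.56 in SH and from 30.1 ± 5.497 in NC_E2 to 13.6 ± 3.07 in SH_E2 (-1.21 ± 0.17, edgeR adjusted p = 2.18e-05). Eif2a had -0.94 ± 0.09 (5.15e-07). It encodes a translation initiation factor other than the PERK substrate, whose gene is Eif2s1, and is counted because the fixed list held it. Ppp1r15a, the GADD34 phosphatase subunit that reverses PERK signalling, had -0.65 ± 0.22 (0.0422). Atf4 itself did not pass, at 193 ± 17.1 FPKM in NC and 189 ± 50.4 in SH (mean difference -0.24 ± 0.15, 0.298). Nor did its targets Ddit3 (-0.37 ± 0.30, 0.439), Trib3 (-0.15 ± 0.31, 0.793) and Chac1 (-0.47 ± 0.24, 0.194). Of 13 genes that act in sensor activation, 1 was lower, the ATF6 relative Atf6b (-0.30 ± 0.06, 0.000845), and 0 were higher, with a median of 0.11.

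Other chaperones, redox enzymes and calcium proteins of the ER moved both ways, 10 lower and 6 higher of 41 (median -0.06). Ganab, the catalytic subunit of glucosidase II, had -0.62 ± 0.05 (5.32e-08) and the prolyl isomerase Fkbp2 -0.61 ± 0.09 (4.76e-05), both on chromosome 19, where the shift given for Syvn1 applies. Higher were the selenoprotein Selenof (0.60 ± 0.09, 4.87e-05) and the sulfhydryl oxidase Qsox1 (0.42 ± 0.06, 3.12e-05). Of 32 other degradation genes, 2 were lower (Herpud2 at -0.82 ± 0.10 and the ligase Rnf5 at -0.44 ± 0.14) and 2 higher (the ligase Rnf139 at 0.75 ± 0.07 and the ubiquitin-conjugating enzyme Ube2j1 at 0.55 ± 0.11), with a median of -0.02.

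Of 39 translocon, signal peptidase and oligosaccharyltransferase genes, 8 were lower and 3 higher (median -0.14). The pore subunit Sec61a1 went from 79.4 ± 5.84 FPKM in NC to 60.7 ± 3.83 in SH (mean difference -0.42 ± 0.07, adjusted p = 0.000169). The oligosaccharyltransferase subunits Ddost (-0.24 ± 0.05) and Tmem258 (-0.49 ± 0.10) and the signal receptor subunit Srprb (-0.29 ± 0.06) were also lower, Tmem258 being another gene of chromosome 19. Of 23 COPII and ER exit genes, 3 were lower, among them the KDEL receptor Kdelr2 (-0.44 ± 0.09) and Sec24a (-0.32 ± 0.09), and 2 were higher. Those 2 were the cargo receptor Tmed10, at 21.8 ± 1.49 FPKM in NC and 45.5 ± 1.16 in SH (1.02 ± 0.08, adjusted p = 1.23e-08), and Sec24b (0.67 ± 0.15). Medians of these 6 lists lay between -0.15 and 0.11, beside -0.28 for the 37 tested members, and were not tested against each other. In every inhibitor and E2 comparison 0 genes of these lists passed.

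No member passed under either inhibitor. For ICI against NC and Tamo against NC without E2, 0 of 37 members passed, as 0.00821% of all genes did, and with E2 0 members and 0.0% of all genes did. The medians were 0.01 for ICI, -0.01 for Tamo, 0.04 for ICI_E2 and 0.05 for Tamo_E2. At an unadjusted p under 0.05 stood 0, 1, 0 and 0 members in that order, and limma and DESeq2 also called 0 in all 4. The 95% interval of the difference lay within a 1.5-fold change either way for 34 members with ICI, 30 with Tamo, 32 with ICI_E2 and 33 with Tamo_E2, so larger changes were outside the interval for most members and not for all. These comparisons share their NC libraries. ICI and Tamo set beside each other, at doses the labels do not give, also differed in 0 members (0.0% of all genes).

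E2 gave 0 calls among the members in each of the 4 arms (0.0% of all genes in each) and in their mean (0.0575% of all genes). The medians were -0.04 in NC, -0.01 in SH, 0.01 in ICI and -0.0009 in Tamo, and in the mean over the arms the 95% interval of all 37 members lay within a 1.5-fold change. At an unadjusted p under 0.05 were 0, 0, 0 and 2 members in these arms and 1 in the mean. Tested against the E2 effect in NC, the effect of E2 in the other 3 arms likewise differed for 0 members (0.0% of all genes), with 0, 0 and 1 at an unadjusted p under 0.05 in SH, ICI and Tamo. DESeq2 and limma also called 0 members in all of these E2 comparisons.

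Xbp1 had the smallest unadjusted p among members in E2 in Tamo, chosen here after its values were seen. It stood at 31.3, 26.0 and 33.6 FPKM in Tamo and 41.2, 36.5 and 40.8 in Tamo_E2, groups that did not overlap. The difference was 0.38 ± 0.11 (unadjusted p = 0.00311, edgeR adjusted p = 0.9998). Tamo was also low beside NC (-0.30 ± 0.11, unadjusted p = 0.0153), and Tamo replicate 2 held the lowest of the 24 values. Over the 4 arms E2 gave 0.15 ± 0.06 (unadjusted p = 0.0139, adjusted p = 1.0), with 34.6, 35.9 and 34.1 FPKM in SH_E2 beside 32.3, 32.7 and 31.1 in SH. In NC the estimate was -0.09 ± 0.11, of the opposite sign. The difference between the E2 effects in Tamo and NC was 0.46 ± 0.16 (unadjusted p = 0.00846), and it did not pass after adjustment over all genes (adjusted p = 1.0).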

How the data were processed

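RNA of 24 P815 libraries was sequenced. Per the labels' protocols it was total RNA extracted with TRIzol, and per the submitters' processing notes cutadapt, HISAT2 and the build GRCm38 were used. Quantifier, annotation, versions and use of strand: not given in the sources used here. Reads of a gene and of one that overlaps it, on either strand, may therefore be mixed. The authors deposited estimated counts per gene and FPKM values per gene in 1 table, per the file headers, with 0 columns of other samples. Low counts pile up at 4 (16.2% of values from 1 to 40) and 8 (9.11%), so a scale other than 1 count per fragment is possible and counts divided by 4 were tried. Depth was 42.1 to 68.8 M estimated counts.

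The estimated counts are whole numbers as deposited and were tested with edgeR 4.0.16 (quasi-likelihood, TMM, 1 coefficient per group, all 24 libraries, R 4.3.3), on the 12183 genes with at least 1 FPKM in 3 libraries. Benjamini-Hochberg adjustment ran over all of them, and a call is an adjusted p under 0.05. Log2 fold changes are given with SE, FPKM with SD. The fit was tested on simulated data. Alternatives were DESeq2 1.42.0, limma 3.58.1 on log2(FPKM + 1) and log2(FPKM + 0.1), other size factors, no filter, a replicate block, the libraries of a comparison alone, replicates 2 and 3 alone and omission of each library. The members and lists were chosen with earlier results of these data known. Values in every library are given for Hspa5, Xbp1, Atf6, Ern1, Eif2ak3 and the 14 of 15 passing members with the smallest adjusted p in any comparison. Of each pathway list, at most 4 passing genes with the smallest adjusted p are named, and always Atf4, Ddit3, Trib3, Chac1, Ppp1r15a and Esr1. The per-library values of P4hb were added after they were seen.

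The labels give the same replicate numbers in every group. Deviations from group means correlated at over 0.1 for 77 of 84 same-number pairs (median 0.232, and -0.141 for different numbers), and for all 3 pairs in 9 of 11 comparisons, which leaves out both SH_E2 and ICI_E2 against NC_E2. Promoter sequences are from RefSeq (GRCm38.p6), and gene positions from GENCODE on GRCm38. With 3 libraries against 3, an exact permutation test of a single value could not go below p = 0.1.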

Additional observations from a re-analysis of the deposited data

Results flagged for a closer look

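The size of the replicate number effect differed between the hairpin arm and the other arms for 10 of 37 members (4.05% of all genes), by an F test in the edgeR fit with 1 coefficient per arm and number, which was chosen after the data were seen. The adjusted p was 7.384e-05 for P4hb, 0.004939 for Sec24d, 0.006693 for Pdia4, 0.009436 for Creb3l2 and 0.01297 for Pdia6. It was 0.01601 for Stt3a, 0.02218 for Calr, 0.03373 for Dnajc3, 0.04254 for Dnajb9 and 0.0487 for Ssr1. For Pdia4, P4hb, Calr and Ssr1, number 1 was lower than number 3 in the hairpin arm. Of these 4, Ssr1 was also lower in number 1 outside it. With an E2 term kept in the fit, 8 members were called (4.03% of all genes).

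The hairpin difference itself differed between the numbers for P4hb (adjusted p = 0.001151) and Creb3l2 (0.04454), where 0.936% of all genes did. Creb3l2 had -0.35 within number 1, -0.98 within number 2 and -0.05 within number 3. With an E2 term, 1 member was called (0.993% of all genes). Each of the 12 cells holds 2 libraries, with and without E2, which may share a culture.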

How the results depend on the processing

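Of 286 counts of called members recomputed under the alternatives, 269 stayed within 1.5 times the count reported. Among them were all counts of 0 in the inhibitor and E2 comparisons. The 17 that moved were all counts of hairpin against vector, the only comparisons with calls among the members. For hairpin against vector without E2 (6 members), DESeq2 called 10, the replicate block 18, the libraries of the comparison alone 2, replicates 2 and 3 alone 1, and omission of 1 library 3 to 5. With E2 (7 members), DESeq2 called 11, no filter on FPKM 4, the replicate block 18 (17 lower and 1 higher), the libraries alone 2, replicates 2 and 3 alone 1, and omission of 1 library 2 to 5. In the mean over both (15 members), the replicate block gave 27 (26 lower and 1 higher), number 1 alone 26, and omission of 1 library 13 to 17. Calls over all genes moved with these counts. Without E2 they were 9.07% as reported, 11.9% with DESeq2, 21.1% with the block, 4.57% with the libraries alone and 6.3% with replicates 2 and 3 alone. With E2 they were 9.59%, 12.4%, 21.9%, 4.55% and 6.13% in the same order, and 2.93% of a larger set of genes with no filter. With replicates 2 and 3 alone, the 1 member called was lower in each set. Beside it, 2.9% of all genes were lower without E2 and 2.84% with it. In the mean they were 20.7% as reported and 35.2% with the block and 20.5% within number 1. With omission of 1 library they were 6.41% to 7.47% without E2, 6.39% to 7.37% with it and 17.8% to 19.1% in the mean. The block changed no other count. The cause of these differences was not tested, except that the smaller subsets hold fewer libraries.

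Of 1026 fold changes of named members, 896 kept direction and side of the threshold, 82 lost it, 37 gained it and 11 changed sign. All 11 are of Ern1. With replicates 2 and 3 alone it was -0.11 without E2, -0.059 with E2 and -0.084 in the mean, and within number 2 it was -0.47. Omitting NC replicate 3 gave -0.08 and SH replicate 1 -0.31 without E2, and omitting NC_E2 replicate 3 gave -0.11 and SH_E2 replicate 1 -0.255 with E2. In the mean, omitting SH replicate 1 gave -0.12, SH_E2 replicate 1 -0.09 and NC_E2 replicate 3 -0.01. Over all omissions it ran from -0.31 to 0.28 without E2, from -0.255 to 0.38 with E2 and from -0.12 to 0.23 in the mean. The cause was not tested. At 3 libraries a group, 34 of 37 hairpin intervals without E2 lay within a 2-fold change, so smaller changes may be missed.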
